A study of Homo sapiens with 8 samples.

Results

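Keratins are the intermediate filament proteins of epithelial cells, and 10 keratin genes (KRT8, KRT18, KRT19, KRT20, KRT7, KRT80, KRT23, KRT15, KRT5 and KRT17) are described here. They were taken by gene symbol and are 10 of the 54261 rows of the count table and 10 of the 54 functional keratin genes listed for this work, all 54 of which have a row. The 10 include 6 type I genes and 4 type II genes.

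A keratin filament is built from pairs of 1 acidic type I chain and 1 basic or neutral type II chain. Simple epithelia, the single cell layers that line the gut, mainly use the type II chain KRT8 (in ducts and many glands also KRT7) with the type I chains KRT18, KRT19 and, in intestinal epithelium, KRT20. Stratified epithelia such as the skin use other pairs, with KRT5 and KRT15 in basal cells and KRT17 in hair follicles and activated or injured epidermis.

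RNA sequencing was done on cultured cell lines at passage P5, with 1 library for each line and treatment and 8 libraries in all. The lines labelled as normal human intestinal epithelium were NCM460 and HIEC6. The colorectal cancer (CRC) lines were DLD1, HCT116 and HCT8, each sequenced untreated and with hypoxia treatment, for which the oxygen level and the duration are not given in the sources used here. No genetic change was made in any line, and each library comes from a single line without repeat cultures, so that the spread within a group is the spread between lines.

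The deposited counts summed to between 45519306 and 57374239 per library, so that 1 count was worth 0.0174 to 0.0220 CPM, where CPM is the count scaled to a library total of 1000000. The library labelled NCM460 stood close to that labelled HCT116. Across all rows log2(CPM + 1) correlated at r = 0.994 for this pair and at r = 0.924 for NCM460 and HIEC6, while the untreated and hypoxia libraries of a single line had r of 0.980 to 0.994. Results that rest on NCM460 are therefore given with and without it. HIEC6 held little RNA of defining epithelial genes: of 10 epithelial markers EPCAM had 0.176 CPM, RAB25 0.159 CPM and CLDN3 no count, and their summed level was 77.8 CPM against 1436 to 3193 CPM in the other libraries, while 11 mesenchymal markers summed to 1432 CPM against 13.1 to 183.5 CPM. Most of each sum was 1 gene. ELF3 gave 64.8 CPM of the epithelial sum, close to its 65.0 CPM in untreated HCT116, and VIM gave 1223 CPM of the mesenchymal sum. The mesenchymal markers COL1A2, COL6A3 and THY1 were lower in HIEC6 than in NCM460, with 0.458, 0.0882 and 0.0353 CPM against 7.99, 4.86 and 0.163 CPM. The intestinal markers VIL1 and CDH17 were each at 0.235 CPM or below in NCM460, HIEC6 and both HCT116 libraries. CDX1, LGALS4 and GPA33 had at most 0.0203 CPM in the same libraries. CDX2, the last of these 6 intestinal markers, had 0.0529 CPM in HIEC6 but 19.9 CPM in NCM460. It had 19.3 CPM in untreated HCT116 and 9.64 CPM with hypoxia, against 163 and 295 CPM in untreated DLD1 and HCT8. All 7 hypoxia genes listed for the check were higher in the hypoxia library of every CRC line, among them CA9 (a carbonic anhydrase induced through HIF-1) with 1, 6 and 4 counts untreated and 242, 1039 and 178 counts with hypoxia in DLD1, HCT116 and HCT8. BNIP3, a mitophagy receptor, had 969 counts untreated and 10624 with hypoxia in HCT116, but 0 untreated and 5 and 1 with hypoxia in DLD1 and HCT8.

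The keratin RNA of the 8 libraries was mostly that of simple epithelium. The 10 genes summed to between 4181 CPM in untreated HCT116 and 12802 CPM in HIEC6, or 0.418% to 1.28% of all counts. KRT8 and KRT18 gave 58.9% to 90.1% of the counts of the 10 genes in each library, the lowest share being that of HCT116 with hypoxia and the highest that of untreated DLD1.

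**Figure D1:**
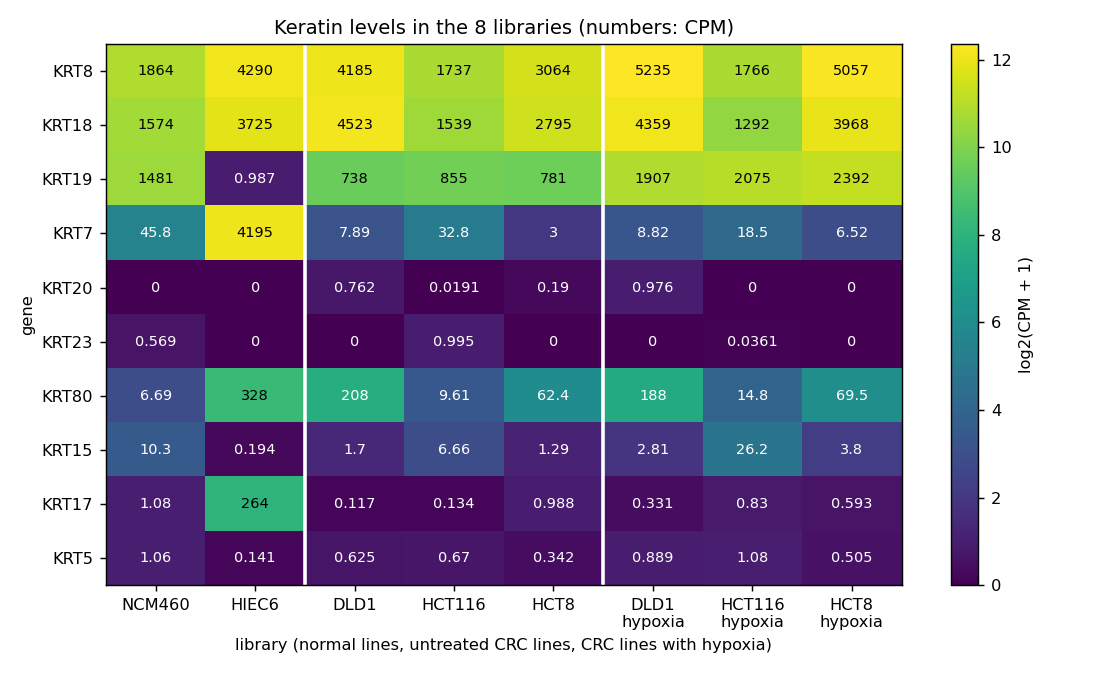
Level of the 10 keratins (rows) in the 8 libraries (columns), with CPM printed in each cell and colour giving log2(CPM + 1). White lines separate the normal lines, the untreated CRC lines and the CRC lines with hypoxia. KRT8 and KRT18 have the brightest rows, with 1292 to 5235 CPM, and KRT19 is below 1 CPM in HIEC6, the library in which KRT7 has 4195 CPM.

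KRT8, the type II chain common to simple epithelia, had 1864 CPM in NCM460 and 4290 CPM in HIEC6, then 4185 CPM in DLD1, 1737 CPM in HCT116 and 3064 CPM in HCT8 when untreated, and 5235, 1766 and 5057 CPM with hypoxia. Its usual partner KRT18 had 1574 CPM in NCM460 and 3725 CPM in HIEC6, and in the same CRC order 4524, 1539 and 2795 CPM untreated and 4359, 1292 and 3968 CPM with hypoxia. NCM460 and the 2 HCT116 libraries were the lowest 3 for both genes, and the other 5 libraries lay above them without overlap. The counts of KRT8 over those of KRT18 stayed between 0.925 and 1.37 in the 8 libraries. Both genes lie on chromosome 12 (GRCh37, KRT8 at chr12:53290971-53343738 on the minus strand and KRT18 at chr12:53342655-53346690 on the plus strand), their gene models share 1084 bases, and since the sources do not say whether counting used the strand, reads there cannot be assigned to one of them. Reads may also be shared with processed pseudogenes, which have 51 rows for KRT8 and 68 for KRT18, and whose summed counts were 0.928% to 2.07% of the KRT8 total and at most 0.84% of the KRT18 total.

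KRT19, the smallest keratin and a type I chain of ducts and gut epithelium, was abundant in 7 of the 8 libraries and near absent in HIEC6. Its level was 1481 CPM in NCM460, 0.987 CPM (56 counts) in HIEC6, 738 CPM in untreated DLD1, 855 in HCT116 and 781 in HCT8, and 1907, 2075 and 2392 CPM with hypoxia in these 3 lines. The untreated CRC libraries were close to each other, all 3 hypoxia libraries lay above all untreated ones (as for 3.06% of all genes tested, and for no other keratin of the 9 tested), and NCM460 lay between them. The gene is on the minus strand of chromosome 17 (GRCh37, chr17:39679869-39684560), with KRT15 as its neighbour 1087 bases away (chr17:39669997-39678781).

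KRT7, the type II keratin of ducts and many non-intestinal epithelia, showed the reverse pattern. It had 4195 CPM in HIEC6 and 45.8 CPM in NCM460, then 7.89 CPM in untreated DLD1, 32.8 in HCT116 and 3.001 in HCT8, and 8.82, 18.5 and 6.52 CPM with hypoxia. HIEC6 was above every other library by more than the whole range of the rest. KRT80, a type II keratin found in many epithelia, had 328 CPM in HIEC6, 208 in untreated DLD1, 62.4 in HCT8, 9.61 in HCT116 and 6.69 in NCM460. With hypoxia it had 188 CPM in DLD1, 69.5 in HCT8 and 14.8 in HCT116, so that the lines kept their order.

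Per kilobase of reference transcript, the scale on which genes can be set beside each other, KRT18 ranked first of the 10 genes in 6 of 8 libraries, KRT19 in HCT116 with hypoxia and KRT8 in HCT8 with hypoxia. KRT19 made up 8.65%, 22.7% and 13.1% of the summed CPM per kilobase of the 10 genes in DLD1, HCT116 and HCT8 when untreated, and 18.4%, 43.5% and 23.3% with hypoxia. KRT7 made up 32.8% of it in HIEC6 and at most 0.863% in any other library. Over the whole family, type I chains summed to 1.46 to 2.43 times the type II chains per kilobase in 7 libraries and to 0.557 times in HIEC6. These orders depend on the length used. With the union of all annotated exons the ratio was 2.64 to 5.00 in the 7 libraries and 0.752 in HIEC6. On that length KRT19 ranked first in NCM460, and KRT18 in place of KRT8 in HCT8 with hypoxia.

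**Figure D2:**
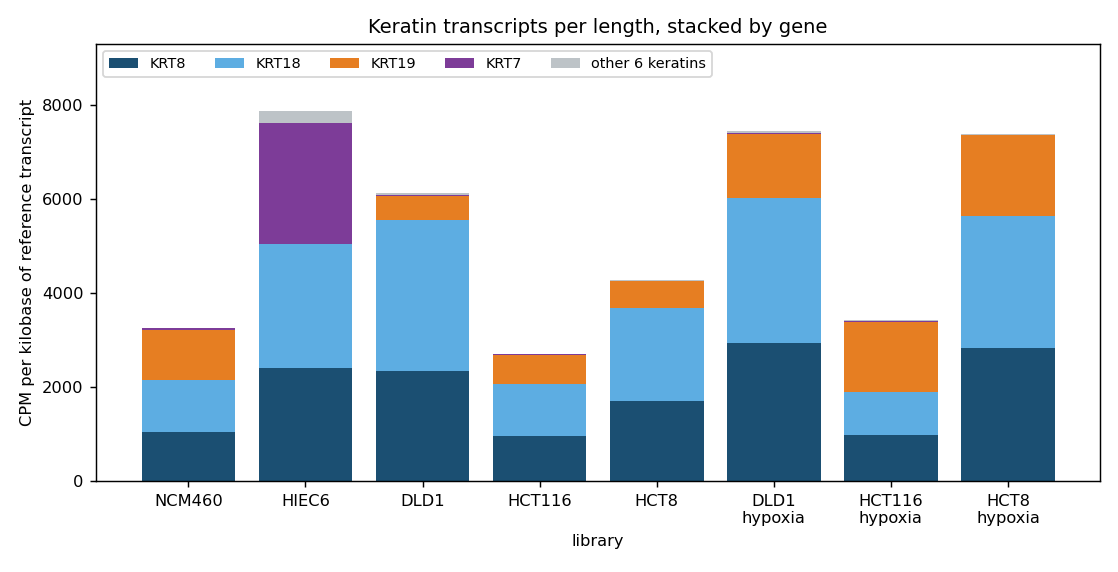
Summed CPM per kilobase of reference transcript (vertical axis) of the keratins in each library (bars), stacked by gene, with the 6 least abundant keratins summed in grey. HIEC6 has a KRT7 segment of 2582 CPM per kilobase and no visible KRT19 segment, and the KRT19 segment of each CRC line is taller with hypoxia than untreated.

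Of the stratified keratins among the 10, KRT17 was abundant in HIEC6, where KRT15 and KRT5 were at their lowest. KRT17 had 264 CPM (14958 counts) in HIEC6 and 6 to 53 counts in each of the other 7 libraries. KRT15 had 10.3 CPM in NCM460, 0.194 in HIEC6, 1.70 in untreated DLD1, 6.66 in HCT116 and 1.29 in HCT8, and 2.81, 26.2 and 3.80 CPM with hypoxia. It was highest in the 2 HCT116 libraries and NCM460. KRT5 had 8 to 60 counts in each library, at most 1.08 CPM.

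The other 2 members, both type I keratins tied to the gut, were sparse, with at most 56 counts in any library. KRT20, a marker of differentiated intestinal epithelium, had 39 counts in untreated DLD1 and 56 in DLD1 with hypoxia, 10 in untreated HCT8 and 1 in untreated HCT116, and no count in the other 4 libraries, where 3 counts would have been 0.0529 to 0.0659 CPM. KRT23 had 52 counts in untreated HCT116, 28 in NCM460, 2 in HCT116 with hypoxia and no count in the other 5. All libraries with a KRT23 count were thus labelled HCT116 or NCM460.

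For KRT20 and KRT5, an intestinal and a basal stratified keratin that both stayed below 1.1 CPM, the 250 bases before the start are shown as promoter sequence (RefSeq, GRCh38.p14, minus strand, KRT20 at chr17:40885243-40885492 and KRT5 at chr12:52520395-52520644), 5′ to 3′. Capitals mark a match to TTTATG, a core bound by the intestinal CDX factors, here on the reverse strand.
KRT20: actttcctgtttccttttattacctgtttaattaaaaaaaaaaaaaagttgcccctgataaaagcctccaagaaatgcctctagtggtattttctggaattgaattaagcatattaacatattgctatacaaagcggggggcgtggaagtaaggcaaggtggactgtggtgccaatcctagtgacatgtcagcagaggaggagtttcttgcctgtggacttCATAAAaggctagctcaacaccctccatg
KRT5: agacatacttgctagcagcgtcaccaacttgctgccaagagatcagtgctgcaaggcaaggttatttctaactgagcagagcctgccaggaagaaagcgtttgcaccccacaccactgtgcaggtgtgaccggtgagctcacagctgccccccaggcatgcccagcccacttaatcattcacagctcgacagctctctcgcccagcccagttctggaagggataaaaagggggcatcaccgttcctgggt
The match begins 29 bases before the KRT20 start. TTTATG occurs on either strand in 9.64% of 35116 promoters of this length, and it has no match in that of KRT5. Neither promoter holds ACGTG, a form of the core of a hypoxia response element (18.5% of promoters), or TATAAA (10.7%). The form GCGTG was not counted over promoters, and the KRT20 sequence holds it. Only exact matches were counted. The marked CATAAA in KRT20 and GATAAA near the KRT5 start each differ from TATAAA in their first base. KRT20 has 2 CpG dinucleotides and KRT5 has 6, against a median of 11. Promoter sequence was available for 3 of the 10 members (KRT5, KRT8 and KRT20) and so not for KRT19 or KRT15. The start used for KRT8 was not that of its reference transcript, and its sequence is not shown.

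To ask how the cancer lines responded to hypoxia, the 3 hypoxia libraries were compared with the 3 untreated ones. KRT19 was 2.58 times its untreated level in DLD1 (95% counting interval 2.56 to 2.62), 2.43 times in HCT116 (2.40 to 2.46) and 3.06 times in HCT8 (3.03 to 3.10). KRT15 was 1.65 times in DLD1 (1.26 to 2.17), 3.93 times in HCT116 (3.49 to 4.43) and 2.94 times in HCT8 (2.21 to 3.96). Both genes were thus higher with hypoxia in 3 of 3 lines, as were KRT8 and KRT5, whose ratios are given below. The share of all genes higher in 3 of 3 lines was not counted. The intervals above cover counting error only. Scaled by library totals, the median gene of HCT116 was lower with hypoxia by 0.35 on the log2 scale, and the medians of DLD1 and HCT8 stayed within 0.03 of 0. With effective library sizes by the trimmed mean of M values (TMM), which bring the HCT116 median to -0.01, KRT19 was 3.07 times and KRT15 4.96 times its untreated level in HCT116.

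Of the 10 keratins 9 passed the filter of 10 counts in 2 libraries, all but KRT23. Without regard to line, edgeR's quasi-likelihood test called 0 of them at an adjusted p of 0.05, against 0% of all 21045 genes tested (606 genes had an unadjusted p under 0.05), and DESeq2 called 55 genes, KRT19 among them. The log2 fold change of KRT19 was 1.56 (SE 0.27, adjusted p = 1.0). The samples share their cell lines, so that the line can be used as a replicate block. In that paired fit KRT19 was the one keratin called, with a log2 fold change of 1.56 (SE 0.18, adjusted p = 0.0115, higher in 3 of 3 lines), while 0.950% of all genes were called. Without the 2 HCT8 libraries 6 genes were called in place of 200, and KRT19 kept a log2 fold change of 1.52 but had an adjusted p of 0.244. The leading code in the description label differs between the untreated and the hypoxia libraries, so that whatever it stands for and the treatment cannot be told apart. Mesenchymal markers were also higher with hypoxia in the paired fit, though not each of them in every line. All 10 tested had a paired log2 fold change above 0 (median 1.70), and FN1 was called (2.80, SE 0.42, adjusted p = 0.0295). Their summed level went from 13.1 to 101 CPM in DLD1 and from 46.9 to 183.5 CPM in HCT116. In HCT8, the line in which KRT19 had its highest ratio, it went from 17.4 to 26.1 CPM. There COL1A1 (8.0 to 14.2 CPM), PDGFRB (3.665 to 8.458 CPM) and FN1 (0.266 to 0.461 CPM) were higher with hypoxia. VIM (1.03 to 0.220 CPM), COL1A2 (1.25 to 0.461 CPM), COL3A1, COL6A3, ZEB1, ZEB2 and THY1 were lower there. TWIST1 was lower with hypoxia in HCT116 (2.28 to 1.61 CPM) and had no count in HCT8. The part of these markers in the keratin values was not tested.

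KRT15 had a log2 fold change of 1.57 (SE 0.36) in the paired fit and an adjusted p of 0.0861, so that it was not called. It passed the threshold with DESeq2 (0.00236), without the filter on low counts (0.000685) and without the 2 DLD1 libraries (0.0498). The other members were not called. KRT8 had a paired log2 fold change of 0.49 (SE 0.18, adjusted p = 0.203) with ratios of 1.25 in DLD1, 1.02 in HCT116 and 1.65 in HCT8. KRT18 had 0.20 (SE 0.19, adjusted p = 0.614), with 0.964, 0.840 and 1.42 by line, and the HCT116 ratio was 1.06 with TMM. KRT5, basal and sparse, had ratios of 1.42, 1.62 and 1.48 on 18 to 60 counts, and an adjusted p of 0.507.

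**Figure D3:**
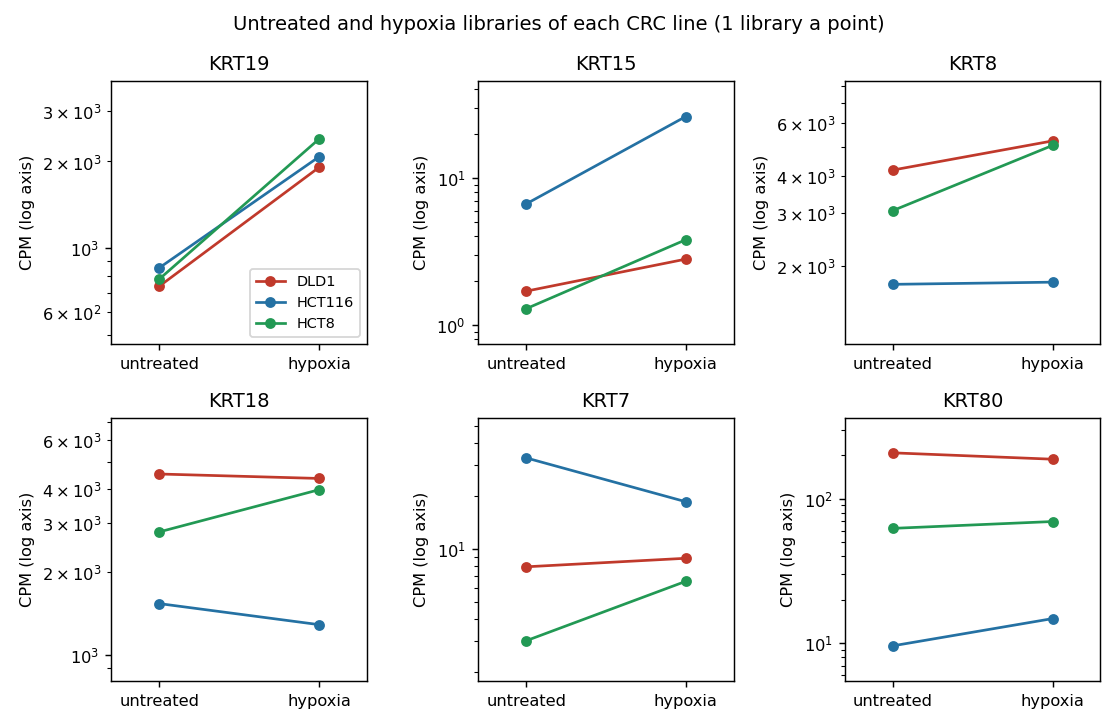
CPM on a log axis in the untreated and the hypoxia library of each CRC line (colour) for 6 keratins, each panel with its own range. Each point is 1 library. The 3 lines of KRT19 rise from 738 to 855 CPM untreated to 1907 to 2392 CPM with hypoxia, and all 3 lines of KRT15 rise from different starting levels.

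**Figure D4:**
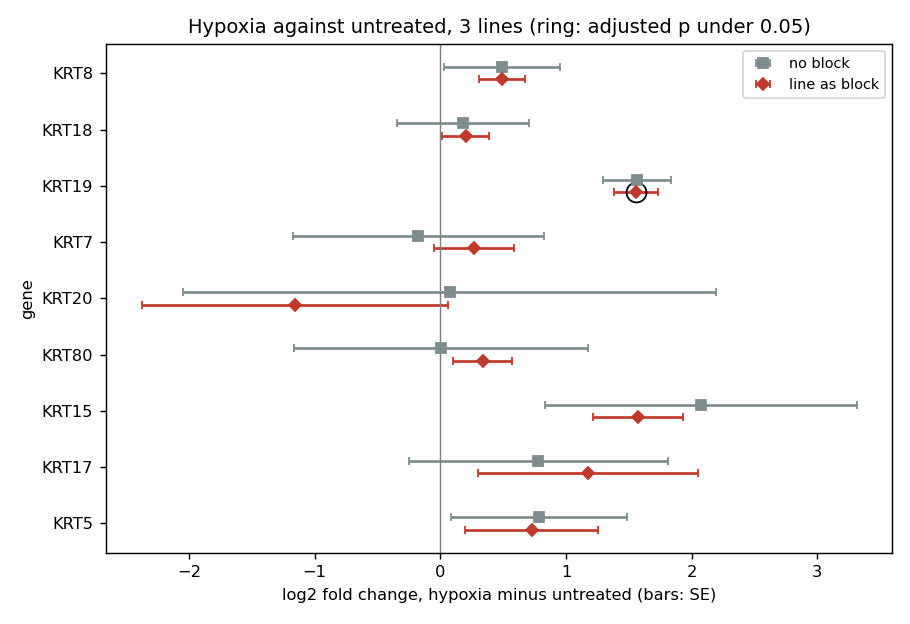
Log2 fold change of hypoxia minus untreated (horizontal axis) for the 9 keratins tested, with bars of 1 SE, without a block (grey squares) and with the line as a block (red diamonds). A ring marks an adjusted p under 0.05, which KRT19 alone has, with the line as a block.

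Among the 44 keratins outside the 10, 14 passed the filter and 0 were called in the paired fit, against 0.950% of all genes. Their median log2 fold change was 1.04, that of the 9 tested members 0.49 and that of all genes tested 0.03. Many of the 14 were sparse, and the filter also counts the hypoxia libraries. KRT3 passed only through these, with 0, 4 and 0 counts untreated and 48, 18 and 11 with hypoxia in DLD1, HCT116 and HCT8. The median of the 14 is therefore no measure of a family response. Only 10 of the 44 reached 1 CPM in any library (KRT10, KRT13, KRT16, KRT32, KRT34, KRT4, KRT6A, KRT71, KRT81 and KRT86), and 15 of the 54 had no count in any. KRT4 and KRT13, which pair in the stratified epithelium of mouth and oesophagus, were highest in HCT8. KRT4 had 42.0 CPM untreated and 74.1 CPM with hypoxia there and at most 0.600 CPM elsewhere. KRT13 had 12.4 and 62.7 CPM in HCT8 and at most 4.88 CPM elsewhere, and its paired log2 fold change with hypoxia was 1.32 (SE 0.37, adjusted p = 0.129). KRT71, a hair root sheath keratin, had 70 and 275 counts in DLD1 and 18 and 82 in HCT8 without and with hypoxia, and no count in the other 4 libraries, with an adjusted p of 0.134 in the paired fit.

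Keratin filaments are anchored in desmosomes through plakin linkers. Of 21 desmosome and linker genes 19 were tested in the paired fit, of which 16 had a higher and 3 a lower value with hypoxia. In this list 1 gene was called (0.950% of all genes were called). It was the desmosomal cadherin DSC2, with a log2 fold change of 0.99 (SE 0.17, adjusted p = 0.0452). DSC2 had 11.8, 66.5 and 94.8 CPM untreated and 25.1, 94.4 and 185 CPM with hypoxia in DLD1, HCT116 and HCT8. The list's median was 0.59. DSP, or desmoplakin, the linker that binds keratin, had a log2 fold change of 0.78 (adjusted p = 0.0784). Of 10 other intermediate filament genes and 15 regulators of epithelial genes tested 0 were called, with medians of 0.56 and 0.36.

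The CRC lines differed from each other in most of these keratins. Using the untreated and hypoxia library of each line, with treatment as a term, edgeR's F test called 6 of 9 keratins (KRT8, KRT18, KRT20, KRT7, KRT80 and KRT15), against 39.0% of all 21045 genes tested. KRT19 was not called between lines (adjusted p = 0.275), nor were KRT5 (0.234) and KRT17 (0.289). KRT80 had the lowest adjusted p of the 9, 0.000129. KRT8 lost its call without untreated DLD1 (0.0927) or DLD1 with hypoxia (0.0671), KRT18 without the former (0.0605) and KRT20 without the latter (0.2). Without the treatment term KRT8 (0.0735) and KRT20 (0.0534) were not called, so that the F test called 4 to 6 keratins over these fits.

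HCT116 stood apart from DLD1 in 6 of 9 keratins, where 32.0% of all genes were called. KRT80 was lower by 3.81 on the log2 scale (SE 0.32, adjusted p = 7.6e-05), KRT18 by 1.44 (SE 0.23, 0.0024) and KRT8 by 1.20 (SE 0.22, 0.00471), while KRT15 was higher by 2.83 (SE 0.45, 0.00215) and KRT7 by 1.82 (SE 0.39, 0.00961). KRT20 was also called (adjusted p = 0.021), on 1 and 0 counts in HCT116 against 39 and 56 in DLD1. Against HCT8, HCT116 differed in 5 of 9 keratins, with 27.0% of all genes called. KRT7 was higher in HCT116 by 2.83 (SE 0.42, adjusted p = 0.00177) and KRT15 by 3.0 (SE 0.44, 0.00186), and KRT80 was lower by 2.06 (SE 0.29, 0.00155), KRT18 by 0.88 (SE 0.23, 0.0247) and KRT8 by 0.80 (SE 0.22, 0.0296). Against DLD1, KRT8 and KRT7 lost their calls without either DLD1 library (adjusted p up to 0.0802 and 0.0671), and KRT20 without untreated HCT116 (0.0528) or DLD1 with hypoxia (0.158). Against HCT8, KRT8 and KRT18 lost theirs without either DLD1 or either HCT8 library (up to 0.355 and 0.344).

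HCT8 differed from DLD1 in 1 of 9 keratins, where 15.7% of all genes were called. KRT80 was lower in HCT8 by 1.75 on the log2 scale (SE 0.29, adjusted p = 0.00566), and it was not called without untreated DLD1 (0.0568), untreated HCT8 (0.0549) or HCT8 with hypoxia (0.0979). Without HCT116 with hypoxia 4 keratins were called, KRT7, KRT18 and KRT20 beside KRT80. For KRT19 the difference between HCT8 and DLD1 was 0.05 (SE 0.21). KRT4 and KRT13 were higher in HCT8 than in DLD1 by 8.38 (SE 0.79, adjusted p = 0.000368) and 4.58 (SE 0.50, 0.00073).

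**Figure D5:**
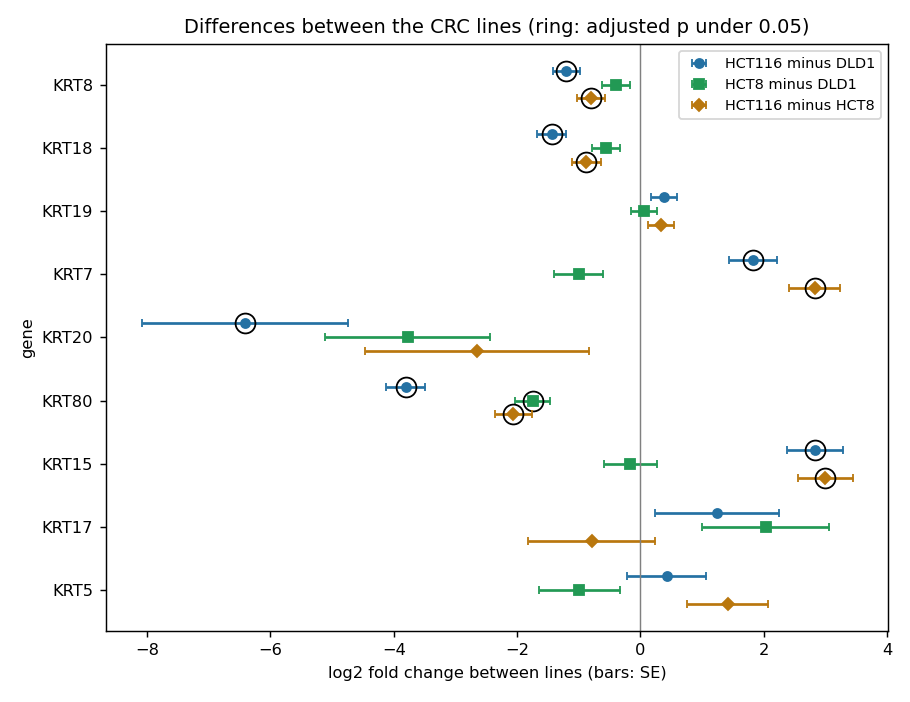
Log2 fold changes between the CRC lines (horizontal axis, bars of 1 SE) for the 9 keratins tested, from the fit with treatment as a term, with colours and symbols for the 3 pairs of lines. Rings mark an adjusted p under 0.05. HCT116 is ringed against both other lines for KRT8, KRT18, KRT7, KRT80 and KRT15, and KRT19 lies within 0.4 of 0 in every pair.

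The study set its CRC lines against normal lines. Over the 5 untreated libraries 10 keratins were tested and 0 were called by edgeR, as were 0% of 19964 genes (542 had an unadjusted p under 0.05), while DESeq2 called 143 genes. KRT7 was lower in the CRC lines by 7.4 on the log2 scale (SE 2.17, adjusted p = 0.999) and KRT17 by 8.65 (SE 2.44, 0.999), the pair of keratins that DESeq2 called (0.0038 and 0.000903). For KRT19 the difference was -0.01 (SE 1.98), the NCM460 and HIEC6 levels lying on either side of those of the CRC lines. The CRC and normal libraries did not overlap for 3 of the 10 keratins, KRT7, KRT17 and KRT20, and for 18.2% of all genes tested. The nearest libraries were close: NCM460 had 1.4 times the KRT7 level of HCT116 and 1.09 times the KRT17 level of HCT8, and KRT20 had 1 count in HCT116 against 0 in both normal lines.

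Without NCM460, HIEC6 alone was set against the 3 untreated CRC lines, on the assumption that it varies as they do. Of 9 keratins tested 0 were called by edgeR, against 0% of 18994 genes (2994 had an unadjusted p under 0.05), and DESeq2 called 4206 genes and 4 keratins. KRT19 had the largest fall, 9.38 on the log2 scale (SE 0.54, unadjusted p = 5.18e-05, adjusted p = 0.101), its CPM being 747 to 865 times higher in the CRC lines. KRT17 was higher in HIEC6 by 9.64 (SE 1.34, adjusted p = 0.178), or 267 to 2251 times, and KRT7 by 8.37 (SE 1.49, adjusted p = 0.193), or 128 to 1398 times. KRT15 was lower by 3.82 (SE 1.68, adjusted p = 0.369). DESeq2 called KRT19, KRT17, KRT7 and KRT15. KRT8 and KRT18 differed by 0.79 (SE 0.57) and 0.60 (SE 0.67), and KRT18 in HIEC6 lay within the range of the CRC lines. The low epithelial sum and the high VIM level of HIEC6 given above move with this comparison, whereas ELF3, COL1A2, COL3A1 and COL6A3 do not move that way, and the part of these markers in the result was not tested. In such bulk RNA fewer cells with a keratin and less of its RNA per cell cannot be told apart.

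Compared with HCT116, NCM460 had 1.07 times the KRT8, 1.02 times the KRT18, 1.4 times the KRT7, 1.55 times the KRT15, 1.73 times the KRT19 and 0.696 times the KRT80 level, with 1 library each and no test.

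The genes whose log2(CPM + 1) over the 8 libraries was most like that of each keratin, among 14354 genes, are given as a description, since the libraries share lines and 1 library can set the value. For KRT19 they included DSP (r = 0.992) and CNN3 (0.987), a calponin. Both were lowest in HIEC6, with 66.7 and 0.0176 CPM. For KRT7 they were RC3H2 (0.990), COL4A6 (0.985) and MGST1 (0.981), each highest in HIEC6. For KRT80 they were TMPRSS3 (0.985), TIMP4 (0.982) and PRR5L (0.982), which shared its order of HIEC6, DLD1 and HCT8 above HCT116 when untreated. For KRT20 they were TLR2 (0.991), CCRL2 (0.989) and LOC107984916 (0.988), all highest in the DLD1 libraries, and for KRT23 LONRF2 (0.993), LINC00998 (0.964) and MBTPS1 (0.959), all highest in untreated HCT116.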

How the data were processed

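Total RNA of 8 cell line libraries was sequenced. Per the labels, the submitters' processing notes name HISAT2 2.0.4 and GRCh38, while the study's methods name GRCh37. The authors deposited raw counts per gene, and the counter, annotation, strand setting and handling of multiply mapped reads are not given in the sources used here. Groups and lines came from the sample labels. CPM were computed from the column totals, with exact Poisson 95% intervals. Positions and transcript lengths came from GENCODE v44 mapped to GRCh37, since the table holds no coordinates. Tests used edgeR 4.0.16 (R 4.3.3, TMM, quasi-likelihood, Benjamini-Hochberg over all genes tested, at least 10 counts in at least 2 libraries, threshold 0.05), and DESeq2 1.42.0 was an alternative. The scripts were tested on simulated data. Replicate numbers in the CRC groups are cell lines and pair the libraries: deviations from the group means correlated at 0.82 to 0.857 within a line and at -0.611 to -0.0599 between lines. P-values of the fits without a line term measure the spread between lines. Those of the paired fit and of the line comparisons measure what is left after the line and treatment terms. No repeat culture of any line stands behind them. Other alternatives were upper-quartile and RLE scaling, totals without the 10 largest genes, other filters, no treatment term and left-out libraries. The keratins and gene lists were chosen with earlier results of these data known. Outside the 10 members, keratins were named at 1 CPM or more in any library, and genes of other lists where called or among the highest. KRT3, below 1 CPM, is named for how it passed the filter. DSP, KRT13 and KRT4 are named also as members of those lists or for their likeness to KRT19, and the fits without the filter keep genes with 1 count in any library. No column of per-sample values was left out. Some genes are not reported here.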

Additional observations from a re-analysis of the deposited data

Results flagged for a closer look

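KRT18, KRT7, KRT80 and KRT17 moved in opposite directions with hypoxia in different CRC lines. These differences were not tested, since each line has 1 untreated and 1 hypoxia library, and only counting intervals are known. Hypoxia over untreated CPM of KRT18 was 1.42 in HCT8, 0.964 in DLD1 and 0.840 in HCT116, and with TMM library sizes the HCT116 value was 1.06. For KRT7 it was 2.17 in HCT8 and 0.564 in HCT116, and 0.713 in HCT116 with TMM. For KRT80 it was 1.54 in HCT116 (1.95 with TMM), 1.11 in HCT8 and 0.904 in DLD1. For KRT17 it was 2.83 in DLD1 and 6.20 in HCT116 but 0.601 in HCT8, on 6 and 19, 7 and 46, and 52 and 27 counts. Reads may also be shared with KRT17 pseudogenes. Untreated and with hypoxia, their rows summed to 8 and 2 counts in DLD1, 13 and 12 in HCT116 and 1 and 3 in HCT8. In untreated DLD1 and HCT116 these exceeded the KRT17 counts themselves.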

How the results depend on the processing

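With each line as a replicate block the hypoxia fit called 200 genes and 1 keratin (KRT19) in place of 0 and 0. It turned the sign of KRT7 to 0.27 and of KRT20 to -1.16 on the log2 scale. DESeq2 called 55 genes and 1 keratin without the block and 1666 genes and 2 keratins (KRT19 and KRT15) with it, where KRT7 had 0.30 and KRT20 -1.97. Without a filter the paired fit called 1904 genes and 2 keratins, and leaving out 1 line gave 6 to 738 genes and 0 to 2 keratins. KRT19 stayed between 1.39 and 1.68 in all 14 alternatives of the unpaired fit and between 1.45 and 1.63 in all 9 of the paired fit, where its call was lost once, without HCT8. KRT80 had -0.02 in the unpaired fit with totals without the 10 largest genes and without a filter. With 1 library left out of the unpaired fit KRT18 ranged from -0.12 to 0.67, KRT20 from -7.01 to 1.77, KRT7 from -1.01 to 1.32, KRT80 from -1.14 to 1.47 and KRT15 from -0.06 to 3.28, and with 1 line left out of the paired fit KRT7 ranged from -0.14 to 0.63 and KRT20 from -0.80 to 0.05. No keratin that turned sign was called in any of these fits except KRT15.

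For CRC against normal lines DESeq2 called 143 genes and 2 keratins, and edgeR 0 in every alternative. The shared numbers there join different lines and pair nothing. With them as a replicate block KRT19 had 4.20, KRT15 1.07 and KRT5 0.58, each turned in sign. KRT18 turned to 0.05 with upper-quartile scaling and 0.14 with totals without the 10 largest genes, and KRT19 to 0.02 and 0.07 with these and to 0.01 without a filter. With 1 library left out KRT8 ranged from -0.79 to 0.57, KRT18 from -0.60 to 0.80, KRT19 from -1.0 to 9.38, KRT80 from -2.57 to 3.70, KRT15 from -1.96 to 3.82, KRT5 from -1.03 to 1.70 and KRT23 from -0.81 to 0.79. For HIEC6 against the CRC lines DESeq2 called 4206 genes and 4 keratins, and edgeR without a filter 42 genes and 1 keratin (KRT19). No keratin turned sign there.

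Between the lines, the fit without a treatment term called 5149 genes and 4 keratins by the F test, 4392 for HCT116 against DLD1, 1480 for HCT8 against DLD1 and 3736 with 3 keratins for HCT116 against HCT8. Requiring 10 counts in every library, which tests fewer genes, gave 4483 for the first pair and 3584 with 3 keratins for the last, and no filter gave 3 keratins for HCT8 against DLD1. With 1 library left out the F test called 4547 to 10147 genes, the 3 pairs in the same order 2978 to 7698, 937 to 6440 and 2184 to 6999 genes and 3 to 6, 0 to 4 and 3 to 5 keratins. Sign turned in such fits for KRT17 in HCT116 against DLD1 (-0.54 to 2.22) and HCT8 (-2.26 to 0.75), for KRT20 in HCT116 against HCT8 (-4.61 to 2.41), and in HCT8 against DLD1 for KRT19 (-0.07 to 0.16) and KRT15 (-0.74 to 0.47). In the last pair KRT15 also had 0.01 with totals without the 10 largest genes and 0.02 without a treatment term. The causes of these changes were not tested. KRT5, KRT20 and KRT23 had at most 60 counts in any library and KRT17 6 to 52 in the CRC libraries, which limits their precision.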
